A study of Mus musculus with 12 samples.

Results

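Expression of 34 genes of pluripotency and the early embryo was followed on 12 Affymetrix mouse arrays. The 34 genes were chosen by name, as known regulators, signals and markers of pluripotent cells and the early embryo, with earlier results of these data known. Of them, 33 were measured, among 18193 genes tested. Tdh, the threonine dehydrogenase of mouse pluripotent cells, was not analysed here. Each gene was read from its brightest probe set in a tissue, and 15 of the 33 had more than 1 probe set. Values are log2 probe set signals, and levels were not compared between genes.

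The arrays formed 4 groups of 3. F9 cells, a male embryonal carcinoma line from a testicular teratoma of strain 129, were either control or carried a short hairpin RNA against SPS1 (shSPS1). SPS1, or selenophosphate synthetase 1, is the protein of the gene Sephs1. The labels do not say what the control cells carried, or whether the knockdown was 1 clone. Livers came from male C57BL/6 mice aged 3 months, either controls or SPS1 knockouts. The knockout was aimed at hepatocytes by Cre under the albumin promoter, so that not all cells of the liver were targeted. The labels call the arrays of a group biological replicates and do not say that the F9 replicates were separate cultures, so the p-values for F9 measure the spread between these samples, which may be technical.

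Pluripotent cells can form every tissue of the embryo, and their state is held by a network of transcription factors around Oct4 (Pou5f1), Sox2 and Nanog that activate each other and their own genes. A second layer of factors, among them Esrrb, Klf2, Klf4 and Tfcp2l1, marks the naive state of the preimplantation epiblast, while Nodal signalling and de novo DNA methylation accompany the move toward the primed epiblast. F9 cells share much of this network and are best known for forming primitive and parietal endoderm when given retinoic acid.

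In F9 cells lacking most Sephs1 message, 4 of the 33 genes rose and 0 fell. They were Tcl1, Esrrb, Dnmt3l and Gdf3, with increases between 1.31-fold and 1.65-fold. Pou5f1, Nanog and Sox2, the core factors, did not pass the test. Across all 18193 genes, 7.2% passed at an adjusted p under 0.05 (limma with Benjamini-Hochberg adjustment over all genes), with 2.56% higher and 4.64% lower. Among the brighter genes, those at or above the median brightness and where 30 of the 33 lay, 4.23% were higher and 7.45% lower. In livers 0 of the 33 genes passed.

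The labels were checked first. Sephs1 read 10.04, 10.03 and 9.94 on the control F9 arrays and 7.79, 7.84 and 7.77 on the shSPS1 arrays, a difference of -2.20 (limma adjusted p = 1.28e-05). In the livers labelled knockout the Sephs1 probe set was not lower (difference 0.19, SE 0.14, adjusted p = 0.789). In F9 cells the probe sets of Pou5f1, Sox2, Nanog, Dppa5a and Utf1 were all among the brightest, at the 90.2th percentile of brightness or above, while all 9 hepatocyte markers measured lay in the dimmer part. In liver all 9 lay in the brighter part. Control F9 array 1 stood apart from controls 2 and 3. It had the lowest weight of the 6 arrays when arrays were weighted by their residual spread (0.279), and it was the lowest control in 17 of the 33 genes (51.5%), against 33.8% of all genes and 44.8% of the brighter ones. Results are given without it where it matters.

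Tcl1, which encodes a coactivator of the kinase Akt and is a known target of Oct4, showed the largest difference of the 33 genes. It read 11.80, 11.65 and 11.74 on the control F9 arrays and 12.40, 12.55 and 12.40 on the shSPS1 arrays. Every knockdown array lay above every control array. The difference was 0.72 (SE 0.08, n = 3 and 3), a 1.65-fold increase, with a limma adjusted p of 0.00156. In bulk samples a gain of cells expressing a gene and a gain of its RNA per cell cannot be told apart.

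Esrrb, an orphan nuclear receptor that binds DNA with the core factors and helps hold mouse stem cells in the naive state, rose to nearly the same degree. Its control values were 11.01, 11.16 and 11.12, and its knockdown values were 11.67, 11.82 and 11.67. The groups did not overlap. The difference was 0.63 (SE 0.08, 1.54-fold, limma adjusted p = 0.00305). Its other probe sets also read higher, by 0.61 (adjusted p = 0.0439 over all probe sets) and by 0.34 (adjusted p = 0.0803).

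Dnmt3l, the catalytically inactive partner of the de novo DNA methyltransferases, was the third gene to rise. It read 10.421, 10.402 and 10.344 in controls and 10.874, 11.003 and 10.877 after knockdown. Again no knockdown array reached down to a control array. The difference was 0.53 (SE 0.07, 1.44-fold, limma adjusted p = 0.00383). Its catalytically active partner Dnmt3b did not pass (0.09, SE 0.08, adjusted p = 0.597) and differed by 0.03 without control array 1.

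Gdf3, a ligand of the transforming growth factor beta family found in pluripotent cells, had the tightest replicates of these 4. Controls read 10.83, 10.81 and 10.80, and knockdown arrays read 11.18, 11.23 and 11.22. The groups were apart by far more than their spread. The difference was 0.39 (SE 0.06, 1.31-fold, limma adjusted p = 0.00823), and a further probe set of Gdf3 gave 0.44 (adjusted p = 0.0132 over all probe sets). Without knockdown array 2 Gdf3 no longer passed (adjusted p = 0.0508).

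**Figure D1:**
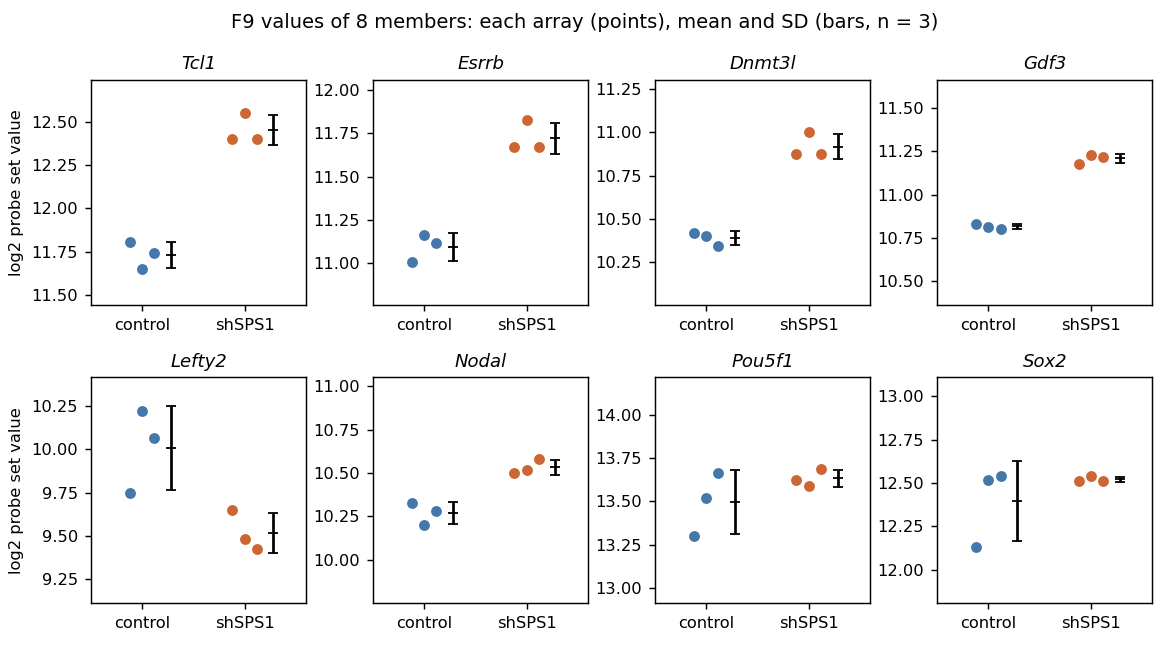
Log2 probe set values (y axis, a separate scale of equal span in each panel) of 8 genes on the 3 control and 3 shSPS1 F9 arrays, with each array as a point and the mean and SD (n = 3) as bars. Tcl1, Esrrb, Dnmt3l, Gdf3 and Nodal have no overlap between groups and lie higher after knockdown, Lefty2 lies lower, and Pou5f1 and Sox2 overlap, with 1 low control array each.

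The promoters of the genes that rose were read because these genes moved in the same direction. RefSeq promoter windows (GRCm38.p6, 250 bases up to the start site, shown 5' to 3' on the gene's strand) were matched for 22 of the 33 genes, as 28 windows. The 3 matched genes that rose held 6 of these windows, and the 5 with a CCACCC motif are shown with that motif, or its reverse complement GGGTGG, in capitals, overlapping copies included. CCACCC is the core of the CACCC box that factors of the Klf and Sp families can bind. The Tcl1 window is chr12:105222738-105222987 on the minus strand. The Esrrb windows are chr12:86360867-86361116 and chr12:86421394-86421643, and the Dnmt3l windows are chr10:78049592-78049841 and chr10:78055085-78055334, all on the plus strand.
Tcl1: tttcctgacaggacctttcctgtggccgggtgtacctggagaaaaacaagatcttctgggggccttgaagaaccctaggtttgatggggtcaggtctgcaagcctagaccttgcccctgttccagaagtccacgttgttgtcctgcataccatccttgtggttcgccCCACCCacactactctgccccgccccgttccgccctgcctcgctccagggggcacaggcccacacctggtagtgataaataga
Esrrb, upstream start: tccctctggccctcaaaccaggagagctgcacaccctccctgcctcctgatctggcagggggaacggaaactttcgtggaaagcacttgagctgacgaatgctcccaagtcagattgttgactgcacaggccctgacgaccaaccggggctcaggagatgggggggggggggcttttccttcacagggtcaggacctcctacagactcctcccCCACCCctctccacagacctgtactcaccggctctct
Esrrb, downstream start: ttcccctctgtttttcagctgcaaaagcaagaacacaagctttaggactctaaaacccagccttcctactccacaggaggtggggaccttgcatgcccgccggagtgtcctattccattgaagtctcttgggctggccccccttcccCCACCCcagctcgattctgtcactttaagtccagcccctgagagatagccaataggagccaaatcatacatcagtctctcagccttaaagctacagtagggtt
Dnmt3l, middle start: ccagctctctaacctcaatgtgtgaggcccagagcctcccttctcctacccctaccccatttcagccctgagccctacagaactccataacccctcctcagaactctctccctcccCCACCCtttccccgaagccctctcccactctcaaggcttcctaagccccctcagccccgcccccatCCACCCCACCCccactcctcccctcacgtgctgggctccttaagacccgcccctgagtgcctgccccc
Dnmt3l, downstream start: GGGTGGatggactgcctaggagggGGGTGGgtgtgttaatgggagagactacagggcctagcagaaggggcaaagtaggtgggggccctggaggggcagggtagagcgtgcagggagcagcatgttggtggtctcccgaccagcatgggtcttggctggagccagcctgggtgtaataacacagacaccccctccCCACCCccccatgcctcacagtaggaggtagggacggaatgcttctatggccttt
In these windows the motif lay within stretches rich in C, or in G on the other strand. It was found on either strand in 28.1% of all 32851 windows of the same length and in 13 of the 28 windows of the listed genes (46.4%). The GC box GGGCGGG, which factors of the same families can bind, was in 23.4% of all windows, in 13 of the 28 and in 2 of the 6. The octamer ATGCAAAT, the site of Oct4 and its relatives, was in 1.6% of all windows, in 1 of the 28 (Zfp42) and in 0 of the 6. The Sox motif CATTGT was in 10.7% of all windows, in 5 of the 28 and in 0 of the 6. The Esrrb motif AAGGTCA was in 4.08% of all windows and in 0 of the 28, and the longer CACCC form CCACACCC was in 3.2% of all windows, in 1 of the 28 and in 0 of the 6. Both strands were searched for each motif, none of these motifs contains another, and a match is only a match of letters.

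The 4 core transcription factors did not pass. Pou5f1, whose product Oct4 is required for the pluripotent epiblast, read 13.30, 13.52 and 13.67 in controls and 13.62, 13.59 and 13.69 after knockdown. The groups overlapped, and the difference was 0.14 (95% interval -0.09 to 0.36, limma adjusted p = 0.504), or 0.04 without control array 1. Sox2, the partner of Oct4 on DNA, read 12.13, 12.52 and 12.54 against 12.51, 12.54 and 12.51. Its difference of 0.12 (95% interval -0.13 to 0.38, adjusted p = 0.613) became -0.01 without control array 1, the lowest of the 6. Nanog, the homeobox factor that stabilises the pluripotent state, read 12.35, 12.54 and 12.52 against 12.59, 12.75 and 12.62. Its knockdown values all lay above its control values by a small margin. The difference of 0.18 (95% interval -0.01 to 0.37) did not pass (adjusted p = 0.253), and became 0.12 without control array 1. Sall4, a zinc finger factor of the same network, differed by 0.09 (SE 0.06, adjusted p = 0.454).

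Among the 9 naive-state factors, Esrrb was the one that passed. Klf2, a Krüppel-like factor that can sustain naive cells together with Klf4 and Klf5, read 10.68, 10.74 and 10.75 in controls and 10.92, 11.02 and 11.01 after knockdown. These groups did not overlap, and the difference of 0.26 (SE 0.07) just missed the threshold (limma adjusted p = 0.0556). Nr0b1, the orphan nuclear receptor Dax1, which binds Oct4, read 12.20, 12.16 and 12.24 against 12.36, 12.43 and 12.40, a difference of 0.20 (SE 0.06, adjusted p = 0.119). Its groups did not overlap either. Klf5 was 0.18 higher (adjusted p = 0.247) on its brightest probe set, 0.43 higher (adjusted p = 0.0511 over all probe sets) on another and -0.05 on the dimmest. Klf4 and Nr5a2, a nuclear receptor that can activate Pou5f1, pointed the other way (-0.16 and -0.18, adjusted p = 0.263 and 0.277), as did Tfcp2l1 (-0.09, adjusted p = 0.561). Prdm14, a repressor of differentiation genes, and Zfp42, the marker Rex1, differed by 0.12 and 0.04.

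The signalling genes split. Nodal, the ligand that acts with the coreceptor encoded by Tdgf1, read 10.33, 10.20 and 10.28 in controls and 10.50, 10.52 and 10.58 after knockdown. The difference was 0.26 (SE 0.07, limma adjusted p = 0.0582), with no overlap, and its other probe set gave 0.34 (adjusted p = 0.0734 over all probe sets). Lefty2, a secreted inhibitor of Nodal and also one of its target genes, went the opposite way. It read 9.75, 10.22 and 10.06 in controls and 9.65, 9.48 and 9.43 after knockdown, lower on every knockdown array than on any control array. The difference was -0.49 (SE 0.12, adjusted p = 0.0564), and control array 1 was the lowest control. Without that array Nodal was 0.29 higher (adjusted p = 0.0427) and Lefty2 differed by -0.62 (adjusted p = 0.00891), so both passed. With any 1 of the other 5 arrays left out neither passed (adjusted p 0.117 to 0.184 for Nodal, 0.0858 to 0.192 for Lefty2). The adjacent and closely related inhibitor Lefty1 differed by -0.11 (SE 0.09, adjusted p = 0.529) with overlapping groups. The coreceptor gene Tdgf1 differed by 0.20 (SE 0.12, adjusted p = 0.421), which became 0.05 without control array 1. Fgf4, the growth factor of the inner cell mass that acts on neighbouring cells, differed by -0.12 (adjusted p = 0.690), and its sign turned without control array 1 (0.04). Fgf5, a marker of the primed epiblast, had a dim probe set, at the 21.0th percentile of brightness, and differed by -0.03 (adjusted p = 0.885).

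Of the 8 genes of chromatin, DNA methylation and the Dppa proteins, Dnmt3l passed and 7 did not. Tet1, an enzyme that oxidises methylcytosine, differed by 0.10, or 0.02 without control array 1. Utf1, a chromatin-bound factor of pluripotent cells, differed by 0.08. Dppa2 and Dppa4, partner proteins that bind chromatin together, differed by 0.09 and -0.16, or 0.05 and -0.09 without control array 1. Dppa5a, an RNA-binding protein, had the highest brightness percentile of the list, 99.99, and differed by 0.06. Dppa3, the maternal factor Stella, was dim (46.9th percentile) and differed by 0.10, or -0.01 without control array 1. Their adjusted p-values lay between 0.305 and 0.682.

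Of the remaining genes, Fbxo15, an F-box protein gene long used as an Oct4 target reporter, read 10.71, 10.66 and 10.73 in controls and 10.91, 10.96 and 10.99 after knockdown. The groups did not overlap, and the difference was 0.25 (SE 0.06, limma adjusted p = 0.0537). Eras, a Ras protein of stem cells, differed by 0.12 (SE 0.11, adjusted p = 0.603), or 0.00 without control array 1. The RNA-binding genes Lin28a and Lin28b, which block maturation of let-7 microRNAs, differed by -0.12 and 0.08 (adjusted p = 0.721 and 0.755), the latter on one of the dimmest probe sets (0.28th percentile). Without control array 1 Lin28a differed by -0.28.

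As a list, 24 of the 33 genes had a positive difference, against 8509 of all 18193 genes. The median was 0.10, against -0.01 over all genes. At an unadjusted p under 0.05, 8 were higher and 1 was lower, against 8.92% and 12% of all genes. Of the 9097 brighter genes, 1170 were higher and 1629 lower at that threshold. Groups did not overlap in 14 genes that were higher and in 3 that were lower (Lefty2, Klf4 and Dppa4), against 12.2% and 15.7% of all genes, and 18.1% and 24.1% of the brighter ones. Without control array 1 the median fell to 0.04, with 23 of 33 positive, and 6 genes passed, 5 higher and 1 lower, against 2.83% and 5.16% of all genes at that setting. Tcl1, Esrrb, Dnmt3l and Gdf3 then differed by 0.75, 0.58, 0.55 and 0.40.

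**Figure D2:**
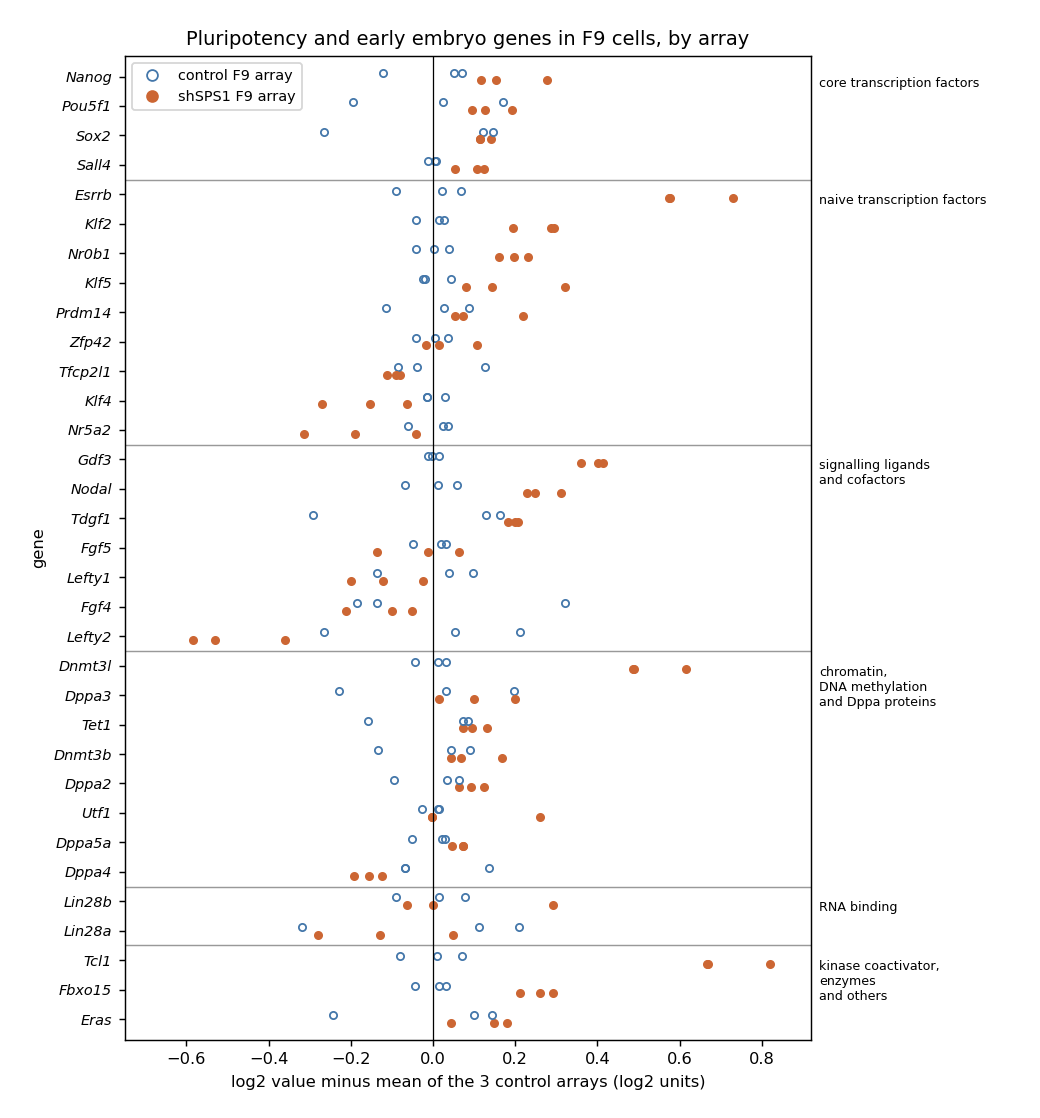
Log2 value of each F9 array minus the mean of the 3 control arrays (x axis, log2 units) for the 33 genes (y axis), grouped by role, with open circles for control and filled circles for shSPS1 arrays. Filled circles stand clear to the right for Tcl1, Esrrb, Dnmt3l and Gdf3. For Lefty2 they lie to the left by a small margin. In Sox2, Tdgf1, Eras and Lin28a 1 control array lies far left.

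The count of passing genes depended on what else was tested. Leaving out the dimmer genes, with 9096 genes tested, raised it to 9 of 30, 8 higher and 1 lower, where 770 of the genes tested (8.47%) were higher and 1181 lower. The added genes were Fbxo15 (adjusted p = 0.0132), Klf2 (0.0142), Nodal (0.0159) and Nr0b1 (0.0345), all higher, and Lefty2 (0.0227), lower.

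Esrrb and Tcl1 both lie on distal chromosome 12, where they were ranks 405 and 507 of 624 tested genes in order along the chromosome. Of the 20 tested genes nearest to Esrrb, 10 on each side, 7 rose and 0 fell, with a median difference of 0.23. Around Tcl1 3 of 20 rose and 0 fell, with a median of 0.02. Around each of the other 31 genes between 0 and 2 rose, and the medians ran from -0.07 to 0.05. Some of these had more neighbours that fell, with 0 rising and 4 of 20 falling around Dppa2 and around Dppa5a. The neighbours of Esrrb and Tcl1 with the smallest p were Tmed8, Jdp2 and Atg2b. Tmed8 differed by 0.73 (SE 0.06, limma adjusted p = 0.000603). Jdp2, a leucine zipper partner of Jun, differed by 0.53 (SE 0.07, adjusted p = 0.0036). Atg2b, a lipid transfer protein of autophagy, differed by 0.46 (SE 0.07, adjusted p = 0.00798). With probe sets averaged Tmed8 differed by 0.37 (adjusted p = 0.015), and Jdp2 did not pass (0.21, adjusted p = 0.104). Of the 101 tested genes between Esrrb and Tcl1, 28 rose and 2 fell, 70 had a positive difference and the median was 0.16. Over all 18193 genes 2.56% rose, 4.64% fell and 8509 had a positive difference. Most counts were lower when 1 array was left out. Without control array 1 they stayed at 7 around Esrrb and at 3 around Tcl1. Around Esrrb 4 genes rose without control array 3, knockdown array 1 or knockdown array 3, and 3 without knockdown array 2, while the median stayed between 0.21 and 0.25. Around Tcl1 1 rose without knockdown array 2. Between the 2 genes the count that rose ran from 14 to 27, in fits where 0.918% to 2.83% of all genes rose. In liver the median differences of the neighbours were -0.10 around Esrrb and 0.06 around Tcl1. Without Esrrb and Tcl1, 2 of 31 genes passed in F9, both higher, and the median was 0.09. That is 6.45%, where 7.2% of all genes passed and 2.56% were higher. Dnmt3l on chromosome 10 had 0 of 20 neighbours that passed. Gdf3, Dppa3 and Nanog lie together on chromosome 6, so their neighbours are shared.

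**Figure D3:**
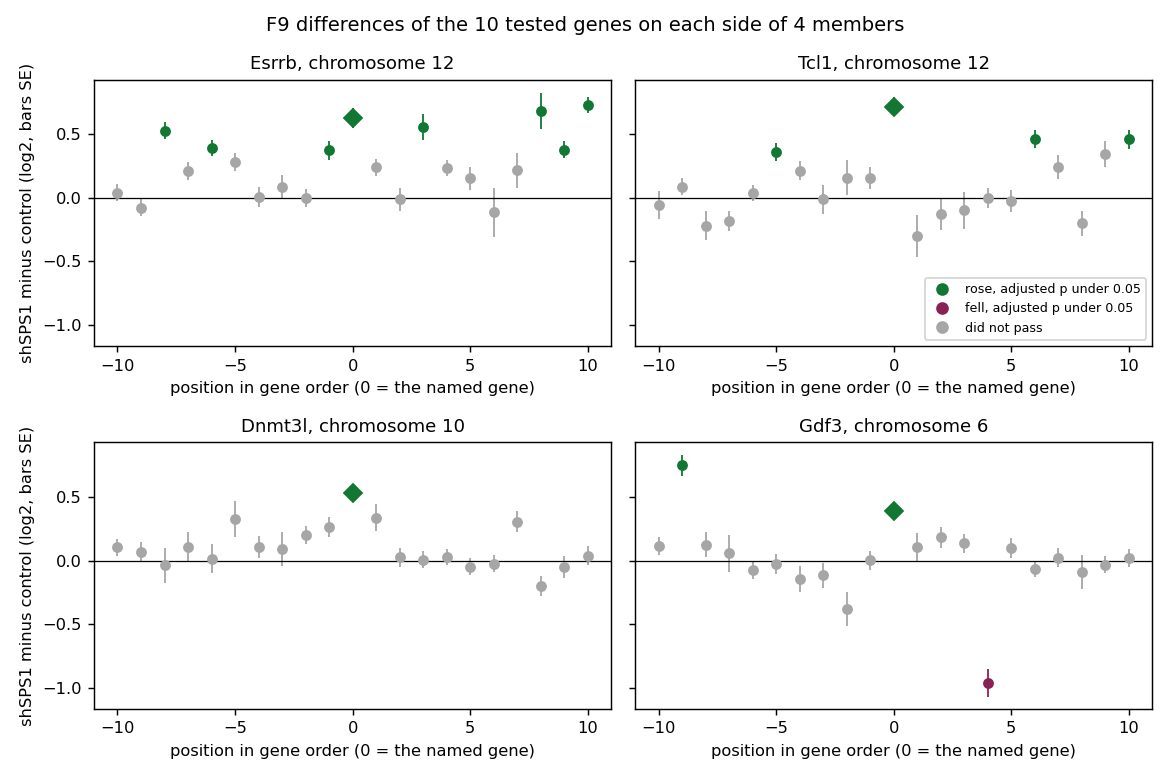
Difference between shSPS1 and control F9 cells (y axis, log2, bars SE) for the 10 tested genes on each side of Esrrb, Tcl1, Dnmt3l and Gdf3 (x axis, position in gene order, the named gene as a diamond at 0). Green points, genes that rose, surround Esrrb on both sides (7 of 20), are fewer around Tcl1 (3 of 20) and are absent around Dnmt3l.

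Genes of related pathways were counted in the same fit, where 2.56% of all genes rose and 4.64% fell. Of the brighter genes 4.23% rose and 7.45% fell. Of 28 further genes of the pluripotency network, all among the brighter ones, 0 rose and 4 fell, with a median of 0.00. These were Cdh1, the epithelial cadherin of compact colonies (-0.72, adjusted p = 0.00788), Alpl, the alkaline phosphatase used as a stem cell stain (-0.85, adjusted p = 0.0118), Gbx2 (-0.44, adjusted p = 0.0196) and Tcf3 (-0.36, adjusted p = 0.0404). By its RefSeq name Tcf3 is the gene of the E protein E2A. It is not Tcf7l1, the network factor once also called Tcf3. It is still counted among the 28 and the 4, so its fall is not that of the network factor. Cdh1 passed with any 1 array left out. The call for Alpl was lost when knockdown array 2 was left out (adjusted p = 0.0651). Gbx2 and Tcf3 failed with any array but control array 1 left out (adjusted p 0.0646 to 0.0805 and 0.0761 to 0.143). Of 15 formative and primed epiblast genes, 4 fell and 1 rose, with a median of -0.24. Tead2, a DNA-binding partner of Yap, fell by 0.72, Sfrp2, a secreted Wnt modulator, by 0.69 and Sox4 by 0.91. Foxd3, a forkhead factor of the epiblast, rose by 0.52. All 4 passed with any 1 array left out (limma adjusted p with all arrays = 0.000603, 0.00314, 0.00592 and 0.00687). Averaged over its probe sets Sox4 differed by -0.33 (adjusted p = 0.0287).

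Of 17 genes of Nodal and activin signalling, 0 rose and 2 fell (11.8% passed, against 7.2% of all genes and 11.7% of the brighter ones). Inhbb, the activin beta B subunit, fell by 1.15 (limma adjusted p = 0.000208), or differed by -0.76 averaged over its probe sets (adjusted p = 0.0011). Smad3, a transducer of Nodal and activin, fell by 0.36 (adjusted p = 0.0119) and lost its call when control array 3 or knockdown array 3 was left out (adjusted p = 0.0546 and 0.0511) or its probe sets were averaged (-0.24, adjusted p = 0.132). Of 21 genes of LIF, BMP and FGF signalling, 1 rose and 1 fell (9.52%). Etv4, a factor induced by FGF, fell by 0.42 (adjusted p = 0.0076), or -0.24 averaged over its probe sets, which did not pass (adjusted p = 0.12). Lif, the cytokine that sustains mouse stem cells, read 0.38 higher (adjusted p = 0.0462) on a dim probe set and, of the fits with 1 array left out, passed only in that without control array 2. Averaged over its probe sets Lif differed by 0.10 (adjusted p = 0.489). Of 9 genes of DNA methylation, 0 passed (limma) and 2 had an unadjusted p under 0.05. At that threshold stood 20.9% of all genes and 2799 of the 9097 brighter ones.

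Markers of other cell types moved in both directions, where 2.56% of all genes rose and 4.64% fell. Of 21 genes of primitive and parietal endoderm, the fate F9 cells are known for, 1 rose and 3 fell, with a median of 0.00. Sox7, an endoderm transcription factor, rose by 0.71, while the keratins Krt8 and Krt18 of simple epithelia fell by 1.18 and 0.97 (limma adjusted p = 0.0015, 0.000151 and 0.00423). The laminin gene Lamb1 fell by 0.35 (adjusted p = 0.0399), a call lost on leaving out control array 2 or 3 or knockdown array 2 or 3 (adjusted p 0.129 to 0.156), or with probe sets averaged (-0.24, adjusted p = 0.109). Of 13 mesoderm genes and of 11 trophoblast genes, Eomes, which is on both lists, rose by 0.36 (adjusted p = 0.0268), a call lost on leaving out control array 2 or 3 or knockdown array 1 or 2 (adjusted p 0.0724 to 0.115). Of 11 neuroectoderm genes Sox1 rose by 0.83 (adjusted p = 0.0123) and lost its call on leaving out knockdown array 2 or 3 (adjusted p = 0.0595 and 0.0559), and it differed by 0.43 with probe sets averaged (adjusted p = 0.0156). Of 14 germ cell and cleavage stage genes, Zp3, an egg coat protein, rose by 0.81 and Prdm1, a repressor needed for primordial germ cells, by 0.94 (adjusted p = 0.00402 and 0.00428). Of 10 fibroblast markers Thy1 fell by 1.41 (adjusted p = 0.000396) and Vim rose by 0.34 (adjusted p = 0.0277), the latter call lost on leaving out control array 2 or any 1 knockdown array (adjusted p 0.0669 to 0.107), or with probe sets averaged (0.26, adjusted p = 0.172). Of 10 leukocyte markers, all in the dimmer part, Cd68 rose by 0.71 (adjusted p = 0.00293). Krt18, Sox1, Prdm1 and Thy1 also lay in the dimmer part. Of 9 hepatocyte markers 0 passed, with 1 at an unadjusted p under 0.05, where 20.9% of all genes were. The part of any such cells in the differences of the pluripotency genes was not tested.

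In liver 30 of the 33 genes lay in the dimmer part of all genes, each ranked by its brightest probe set. The exceptions were Nr5a2, which in hepatocytes regulates bile acid synthesis genes, Klf2 and Klf4. Nr5a2 read 11.29, 11.21 and 10.79 in controls and 11.23, 11.11 and 11.20 in the livers labelled knockout, a difference of 0.08 (95% interval -0.36 to 0.52). The groups overlapped. Klf2 and Klf4 differed by 0.01 and -0.18 (limma adjusted p = 0.993 and 0.897). In all, 0 of 33 genes passed, where 0.044% of all genes did (8 genes, 0.011% higher and 0.033% lower), and 2 had an unadjusted p under 0.05, where 7.28% of all genes did. Groups did not overlap in 3 genes, Esrrb, Dppa4 and Sall4, all higher, against 8.42% of all genes higher and 6.36% lower.

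Esrrb read 5.97, 5.40 and 6.06 in control livers and 6.89, 7.10 and 7.35 in livers labelled knockout. The groups did not overlap, and the difference was 1.30 (SE 0.24, limma adjusted p = 0.274). This brightest probe set in liver is of a class that may bind related transcripts, and the other Esrrb probe sets differed by 0.06 and -0.91 there. Dppa4 read 4.37, 4.72 and 3.06 against 6.21, 5.08 and 5.23, with no overlap and a difference of 1.45 (SE 0.54, adjusted p = 0.658). Tcl1, Dnmt3l and Gdf3 differed by 0.49, 0.18 and 0.42 in liver (adjusted p between 0.808 and 0.962), with overlapping groups. The standard errors of the 33 genes had a median of 0.54 in liver and 0.08 in F9 cells, so that the interval for Nanog in liver ran from -1.98 to 3.04. The median difference was 0.42 in liver, against 0.03 over all genes, and it was 0.01 over the 3 genes in the brighter part. It was 0.11 without array 1 of those labelled knockout and 0.24 without control array 2.

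**Figure D4:**
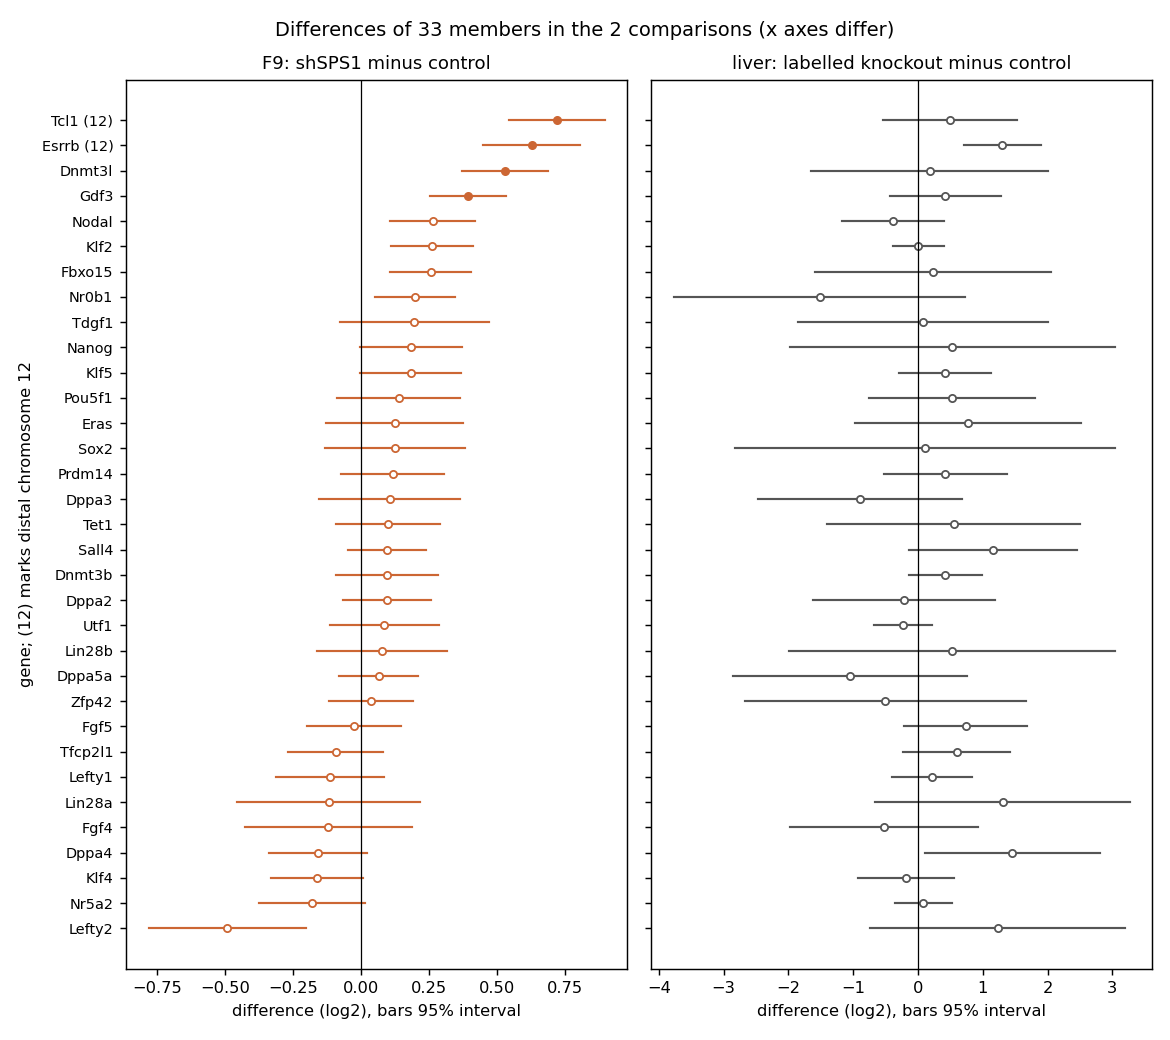
Difference of each of the 33 genes (y axis) in F9 cells, shSPS1 minus control, and in liver, arrays labelled knockout minus control (x axes, log2, with different ranges), with 95% intervals as bars and filled points for genes that passed. Filled points appear for Tcl1, Esrrb, Dnmt3l and Gdf3 in F9 cells and for no gene in liver, where the intervals are several times wider.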

How the data were processed

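RNA (100 ng a sample) from 6 livers and 6 F9 samples was labelled with biotin and measured on Affymetrix mouse arrays. The authors deposited log2 values per probe set, in 1 table per tissue. Per the submitters' processing notes, R 3.0.1 and affy 1.38.1 were used; the normalization is not given in the sources used here, and the tissues were not compared directly.

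Of 45101 probe sets, 932 naming several genes, 9160 without a symbol and 64 controls were left out. The brightest of a gene's remaining probe sets (34945 in all, for 18193 genes) was tested with limma 3.58.1 in R 4.3.3 (lmFit, eBayes, two-sided) within each tissue, with Benjamini-Hochberg adjustment over all genes. The test was run on simulated data first. The genes and lists were chosen with earlier results of these data known. Genes described in full passed, had an unadjusted p under 0.05 or were Pou5f1, Nanog or Sox2; other lists give up to 4 passing genes each and the chromosome 12 neighbours 3, by smallest p, and Sephs1 checks the labels. Gene order and names come from RefSeq GRCm38.p6. Alternatives changed the normalization, the filter on dim genes, the probe set rule, the variance model, the threshold, the weights, the block and the arrays used. The number of arrays limits the precision.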

Additional observations from a re-analysis of the deposited data

Results flagged for a closer look

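Dppa4 pointed in opposite directions in the 2 tissues, with no overlap between groups in either. It differed by -0.16 in F9 cells, where every knockdown array was below every control array, and by 1.45 in liver, where every array labelled knockout was above every control array. Neither difference passed the test (limma adjusted p = 0.305 and 0.658), and the difference between the tissues was not tested. Without control array 1 the F9 difference was -0.09, and in liver the probe set was dim (17.1th percentile of brightness).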

How the results depend on the processing

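In F9 cells, leaving out 1 array gave 524 to 1452 passing genes, 3 to 6 passing genes of the list and a list median between 0.0404 and 0.1385. The replicate block gave 662 genes and 3 of the list (Gdf3 at adjusted p = 0.0519), and in liver 0 genes and 0 of the list. Same-numbered arrays did not clearly deviate together (correlations -0.09, -0.02 and -0.07 in F9, -0.06, -0.005 and 0.08 in liver). With 3 arrays a group this cannot exclude that the numbers pair the samples. Of the list, 8 passed without the dimmest 25% of genes (11.8% of all genes tested passed there) and 9 without the dimmest 50% (21.4%). With probe sets averaged per gene 7 passed (6.38%), and with an intensity trend 9 (10.5%). At a threshold of 0.1 the list count was 8, and the share of all genes was not counted there. Without Esrrb and Tcl1, 2 of 31 passed (6.45%), where 7.2% of all genes did. Array weights gave 2285 genes (12.6%), 8 of the list and a median of 0.0469. In liver 8 genes passed, 0 to 3 with 1 array left out, 2 after quantile normalization, 25 and 67 without the dimmest 25% and 50%, 2 with probe sets averaged and 89 with a trend; the list count was 0 in all of these. The list's liver median was 0.11 to 0.36 with 1 array left out, 0.2139 and 0.0074 without the dimmest 25% and 50% of genes and 0.23 with probe sets averaged. Signs turned in F9 for 7 genes, none past the threshold. With 1 array left out Sox2 ran from -0.0095 to 0.1966, Fgf4 from -0.2138 to 0.0394 and Dppa3 from -0.0093 to 0.2026, each sign turning without control array 1. Zfp42 ran from -0.0011 to 0.0612 and Utf1 from -0.0026 to 0.1289, turning without knockdown array 2, and Fgf5 from -0.0732 to 0.0263 and Lin28b from -0.032 to 0.1459, turning without knockdown array 3. Array weights gave 0.0036 for Fgf4 and -0.015 for Dppa3, and averaged probe sets gave 0.116 for Fgf5. The replicate block also ended the F9 calls of Eomes, Gbx2, Lamb1, Lif, Smad3, Tcf3 and Vim (adjusted p 0.0605 to 0.134), centring and an intensity trend that of Lif (0.0517 and 0.0551), and quantile normalization that of Tcf3 (0.0507). The cause of these changes was not tested. Scan batches were not run, since no label gives them.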
